A study of Homo sapiens with 48 samples.

Results

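The 9 genes followed here mark plasma cells and were read from the deposited count matrix: IRF4, PRDM1, POU2AF1, SDC1, TNFRSF17, CD38, SLAMF7, JCHAIN and MZB1. The rule was a match of the symbol and used no measured value, and each of the 9 symbols names 1 of the 33892 rows. RNA came from 8 established human cancer cell lines grown in two-dimensional culture: the colon cancer lines RKO and DLD-1, the lung cancer lines H-23 and H-1299, the pancreatic cancer lines PANC-1 and CAPAN-2, and the multiple myeloma lines H-929 and RPMI. Each line received carfilzomib, an irreversible proteasome inhibitor used against myeloma, or its solvent DMSO, for 24 h. The drug was given at each line's IC50 for proteasome activity, so the amount differed by line, and the amounts themselves were not used here. Every one of the 16 groups of line and treatment held 3 libraries, which the labels call biological replicates, and no group carries an engineered change.

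A plasma cell is the antibody-secreting end stage of the B lineage, and multiple myeloma is its malignancy. The transcription factors IRF4 and PRDM1 (the gene of BLIMP-1) install the secretory programme and silence B cell genes, and POU2AF1 (OBF-1) is a coactivator that joins octamer-binding factors on lymphoid promoters. The surface proteins SDC1 (CD138), TNFRSF17 (BCMA, the receptor for the survival factors APRIL and BAFF), CD38 (an NAD-consuming ectoenzyme) and SLAMF7 identify the cells, and several are targets of myeloma therapies. JCHAIN links immunoglobulin chains into polymers, and MZB1 is a chaperone of the endoplasmic reticulum that helps immunoglobulin fold and assemble.

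The RefSeq promoter table (GRCh38.p14) held 6 of the 9 genes. Their 250 bases before the annotated start are shown because these are the members with an entry that fell in both myeloma lines (below). For SDC1 and PRDM1, each with 2 starts in the table, the more upstream start was taken. Capitals mark the single match found, a composite ETS and IRF element.
IRF4: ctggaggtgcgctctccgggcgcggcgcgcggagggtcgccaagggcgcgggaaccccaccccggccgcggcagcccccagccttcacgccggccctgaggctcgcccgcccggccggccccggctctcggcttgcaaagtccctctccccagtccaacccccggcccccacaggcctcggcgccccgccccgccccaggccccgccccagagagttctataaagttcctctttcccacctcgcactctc
PRDM1: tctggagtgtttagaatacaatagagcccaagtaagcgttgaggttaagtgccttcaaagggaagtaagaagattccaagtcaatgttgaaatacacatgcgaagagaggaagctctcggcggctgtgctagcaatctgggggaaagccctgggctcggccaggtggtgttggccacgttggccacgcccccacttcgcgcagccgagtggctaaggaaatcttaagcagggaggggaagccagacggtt
SDC1: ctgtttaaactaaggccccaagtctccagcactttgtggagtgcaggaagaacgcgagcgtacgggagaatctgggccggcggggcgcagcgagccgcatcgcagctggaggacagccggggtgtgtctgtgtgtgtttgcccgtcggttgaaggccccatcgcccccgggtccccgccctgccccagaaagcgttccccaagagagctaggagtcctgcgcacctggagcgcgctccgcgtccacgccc
CD38: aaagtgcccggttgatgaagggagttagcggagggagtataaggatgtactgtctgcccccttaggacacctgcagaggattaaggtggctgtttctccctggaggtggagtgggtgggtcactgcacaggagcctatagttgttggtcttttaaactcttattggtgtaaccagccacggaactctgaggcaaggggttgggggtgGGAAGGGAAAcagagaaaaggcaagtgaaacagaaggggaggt
JCHAIN: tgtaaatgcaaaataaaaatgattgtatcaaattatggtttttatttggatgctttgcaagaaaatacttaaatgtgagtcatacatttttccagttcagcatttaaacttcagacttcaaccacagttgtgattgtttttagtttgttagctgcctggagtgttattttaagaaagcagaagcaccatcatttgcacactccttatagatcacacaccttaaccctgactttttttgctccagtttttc
MZB1: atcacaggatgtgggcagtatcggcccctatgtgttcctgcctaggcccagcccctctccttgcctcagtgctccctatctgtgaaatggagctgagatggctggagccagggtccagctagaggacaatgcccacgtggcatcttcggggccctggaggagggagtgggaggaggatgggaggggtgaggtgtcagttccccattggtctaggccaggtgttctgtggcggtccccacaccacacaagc
The IRF4 stretch is chr6:391502-391751 and the PRDM1 stretch chr6:106086086-106086335, both on the plus strand. SDC1 is at chr2:20225476-20225725 on the minus strand and CD38 at chr4:15778078-15778327 on the plus strand. JCHAIN is at chr4:70666509-70666758 and MZB1 at chr5:139389914-139390163, both on the minus strand. GC content ran from 32.8% in JCHAIN to 76.0% in IRF4, beside a median of 58.0% over all 35116 promoters of the same length. Both strands were searched for the octamer ATGCAAAT, an IRF element (a pair of GAAA cores with any 2 bases between), the composite element (GGAA, any 2 bases, GAAA) and a heat shock element. Of the 8 starts of the 6 genes, 1 held a match, the composite element 43 bases before the CD38 start on the plus strand. The composite element was present in 2.41% of all promoters, the IRF element in 3.02%, the octamer in 1.63% and the heat shock element in 0.441%. A match is a run of letters and not a measured binding site.

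Depth ranged from 9116329 to 64369098 counts per library. In H-929, depth was 14643911 to 18857059 with DMSO and lower, 9116329 to 9927869, with carfilzomib. In RPMI the ranges were 17556925 to 36584233 and 18132225 to 22045106. The 3 libraries of a group differed by more than counting noise in all 48 pairs, with a chi-square per degree of freedom of at least 3.48. The plasma cell markers at hand were the 9 genes themselves and XBP1, so their levels, given below, are no independent check of the myeloma label. Markers of other cell types were not all low in the myeloma lines. In H-929, the summed CPM (counts per 1000000 counted reads, here with TMM factors over all 48 libraries) of 6 epithelial markers was 52.1 to 64.9 with DMSO and 98.7 to 104 with carfilzomib, mostly KRT18. The 6 myeloid markers, mostly CD68, stood at 36.5 to 38.6 and 60.8 to 69.1, the 6 markers of T and NK cells, mostly CD3E, at 24.6 to 26.4 and 17.6 to 22.4, and the 6 of mature B cells, mostly BACH2, at 48.6 to 59.7 and 47.1 to 47.2. In RPMI the epithelial sum was 226 to 231 and 203 to 237, with EPCAM the highest under DMSO at 119 CPM, the myeloid sum 59.8 to 67.5 and 35.3 to 42.4, the T and NK sum at most 0.534, and the B cell sum 29.8 to 33.01 and 26.5 to 28.6. Under DMSO, CD22 and CD3D were at 0 in H-929 with KRT19, and CD3D, CD3G and CD2 were at 0 in RPMI. The part of these genes and of depth in the changes below was not tested, and in RNA from whole cultures fewer cells of a kind and less RNA per cell cannot be told apart.

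With DMSO, 8 of the 9 genes were far more abundant in the myeloma lines than in any of the 6 carcinoma lines, and SDC1 was the exception. Since the genes were chosen as plasma cell genes, these levels are a description. JCHAIN had the most counts of the 9, at 5376 ± 194 CPM (SD, n = 3) in H-929 and 4384 ± 414 in RPMI. Among the 18 carcinoma DMSO libraries, 13 had no JCHAIN read and the highest reached 0.494 CPM, in RKO. IRF4 stood at 2147 ± 67.6 CPM in H-929 and 556 ± 31.9 in RPMI, and no carcinoma library exceeded 0.494 CPM.

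POU2AF1 was close to silent outside myeloma: 593 ± 47 CPM in H-929 and 82.7 ± 3.34 in RPMI stood against 15 of 18 carcinoma libraries with no read and at most 2 counts in the others. SLAMF7 was 385 ± 32 CPM in H-929 and 10.1 ± 1.43 in RPMI, with at most 0.301 CPM in a carcinoma library, from CAPAN-2. MZB1 was the one member that was higher in RPMI, at 1155 ± 28.7 CPM against 642 ± 28.5 in H-929, and its carcinoma maximum was 0.521 CPM, in H-23. All 3 libraries of a line had 0 counts for POU2AF1 in RKO, H-23 and H-1299, SLAMF7 in H-23, H-1299 and PANC-1, and JCHAIN in H-1299 and PANC-1. In 1 such library taken alone, a level of up to 3 counts could have gone unseen by counting error. That is at most 0.237 CPM at the depth of RKO. For 3 libraries at 0 together the limit is lower, and it was not computed.

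TNFRSF17 stood at 387 ± 28 CPM in H-929 and 63.6 ± 7.96 in RPMI. RKO came next with 1.76 ± 0.376 CPM, above PANC-1 (0.576 ± 0.113) and CAPAN-2 (0.550 ± 0.0626), whose libraries overlapped. CD38 was 111 ± 5.75 CPM in H-929 and 68.0 ± 18.8 in RPMI, followed by H-23 at 0.654 ± 0.180. For IRF4, JCHAIN, MZB1, SLAMF7 and POU2AF1, the libraries of every neighbouring pair of carcinoma lines in the order of levels overlapped.

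PRDM1 was measured in every library. It stood at 1027 ± 50.7 CPM in H-929, 122 ± 11.6 in RPMI and 19.3 ± 1.08 in CAPAN-2, then 6.91 ± 0.50 in H-23, 3.61 ± 0.297 in H-1299, 3.30 ± 0.388 in RKO, 2.33 ± 0.395 in PANC-1 and 2.28 ± 0.180 in DLD-1. The top 4 lines did not overlap one another, H-1299 overlapped RKO, and PANC-1 overlapped DLD-1.

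SDC1, a heparan sulfate proteoglycan that epithelia also carry, was abundant in both kinds of line. Its order was H-929 (568 ± 36 CPM), RPMI (427 ± 11.9), CAPAN-2 (375 ± 36.1), PANC-1 (203 ± 9.65), H-23 (175 ± 3.12), DLD-1 (120 ± 15.2), RKO (84.9 ± 2.26) and H-1299 (8.45 ± 0.589). No pair of neighbours in this order overlapped with these factors, and H-929 exceeded CAPAN-2 by a ratio of 1.51 and RPMI exceeded it by 1.14. With library totals as the scaling, RPMI and CAPAN-2 libraries overlapped. Over library totals and DESeq2 size factors, the mean ran from 373 to 415 CPM in RPMI and from 349 to 374 in CAPAN-2. H-1299 lay farther from the other carcinoma lines than CAPAN-2 did from the myeloma lines.

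**Figure D1:**
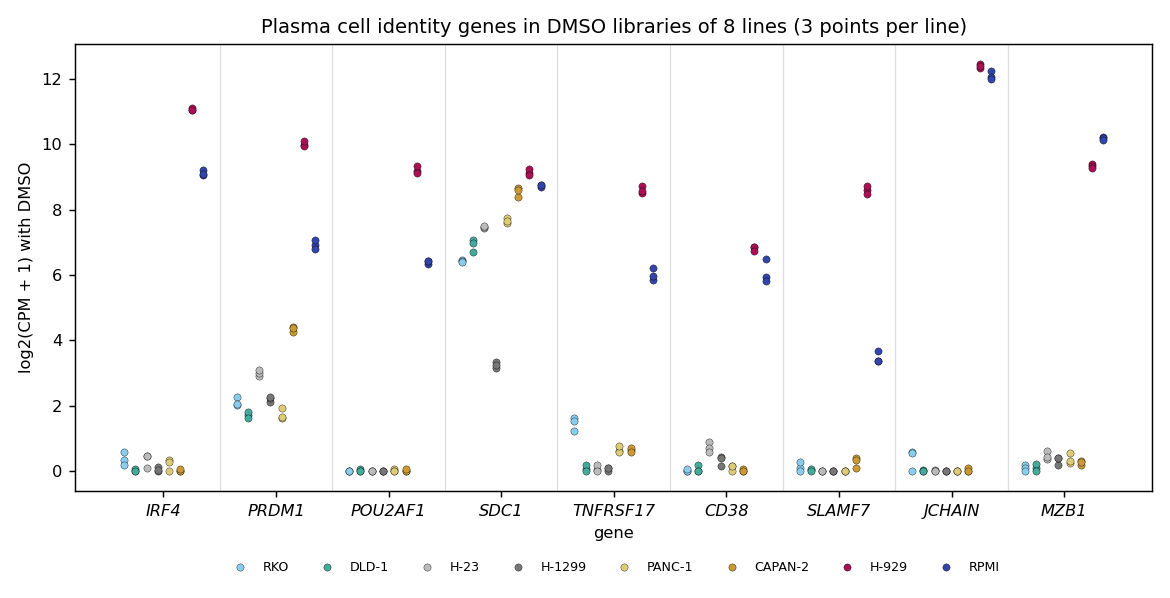
DMSO levels of the 9 genes as log2(CPM + 1) on the vertical axis, with TMM factors over all 48 libraries; each point is 1 library and colours mark the 8 lines, 3 points per line. The 2 myeloma lines lie above all carcinoma lines for every gene, narrowly for SDC1, where CAPAN-2 averages 375 CPM and RPMI 427.

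Levels can be set between genes after division by exon length. Per kilobase of GENCODE 29 exon, JCHAIN led in H-929 DMSO libraries with 3199.8 ± 115 CPM per kb, followed by IRF4 (364 ± 11.5), TNFRSF17 (346 ± 25.1), MZB1 (282 ± 12.5), PRDM1 (161 ± 7.93), SDC1 (158 ± 10.01), POU2AF1 (80.0 ± 6.34), SLAMF7 (79.7 ± 6.63) and CD38 (16.2 ± 0.839). In RPMI the order per kilobase began with JCHAIN (2609.5 ± 246) and MZB1 (508 ± 12.6) and ended with SLAMF7 (2.10 ± 0.295). All 9 genes together took 1.01% ± 0.0154 of all counts in H-929 DMSO libraries and 0.600% ± 0.0446 in RPMI, of which JCHAIN alone was 0.485% ± 0.0114 and 0.383% ± 0.0371. In the carcinoma lines the 9 genes took 0.00121% (H-1299) to 0.0368% (CAPAN-2).

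The 2 myeloma lines differed from each other in all 9 genes before treatment, with 8 higher in H-929 and MZB1 higher in RPMI. In this fit of the 6 DMSO libraries, 41% of the 15774 genes tested were called higher in H-929 (adjusted p under 0.05) and 41% lower. SLAMF7 differed most, by 5.29 ± 0.096 on the log2 scale (estimate ± SE, edgeR adjusted p = 6.72e-13), a ratio of 38.99. PRDM1 was higher by 3.08 ± 0.075, POU2AF1 by 2.85 ± 0.069, TNFRSF17 by 2.62 ± 0.087 and IRF4 by 1.96 ± 0.059. The differences were smaller for CD38 (0.73 ± 0.15), SDC1 (0.42 ± 0.055) and JCHAIN (0.30 ± 0.070, edgeR adjusted p = 0.00175), and MZB1 was lower in H-929 (log2 difference of -0.84 ± 0.054). The 3 transcription regulators, TNFRSF17 and SLAMF7 differed between the lines by more than JCHAIN and MZB1 did.

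Carfilzomib was followed by lower levels of all 9 genes in H-929 and of 7 in RPMI, where POU2AF1 and SLAMF7 rose. Each line was fitted on its own with edgeR, and a call is an adjusted p under 0.05. In H-929, 26.2% of the 15682 genes tested were called lower and 26.4% higher; in RPMI, 32.2% of 14995 were called lower and 31.3% higher. The members' median log2 fold change was -0.72 in H-929 and -1.22 in RPMI, beside 0.03 and 0.01 over all genes tested. The 3 treated and 3 DMSO libraries did not overlap for any of the 9 members in either line, which was also so for 59.4% of all genes tested in H-929 and 68.2% in RPMI. The 9 genes' share of all counts fell from 1.01% to 0.533% ± 0.0257 in H-929 and from 0.600% to 0.155% ± 0.0155 in RPMI.

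Scaling bears on the H-929 split: with TMM factors taken over all 48 libraries in place of the line's own 6, every H-929 value moved by about -0.22 on the log2 scale, and 36.7% of genes were then called lower and 19.9% higher. Lower calls were 49.8% of all calls with the line's own factors and 64.8% with the others, and the members' median became -0.94. The members' CPM by treatment below use the factors of each line's own fit and differ from the levels above. Mean IRF4 with DMSO is 1955 CPM in H-929 and 489 in RPMI, against 2147 and 556. With carfilzomib in H-929 it is 1172 against 1106.

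**Figure D2:**
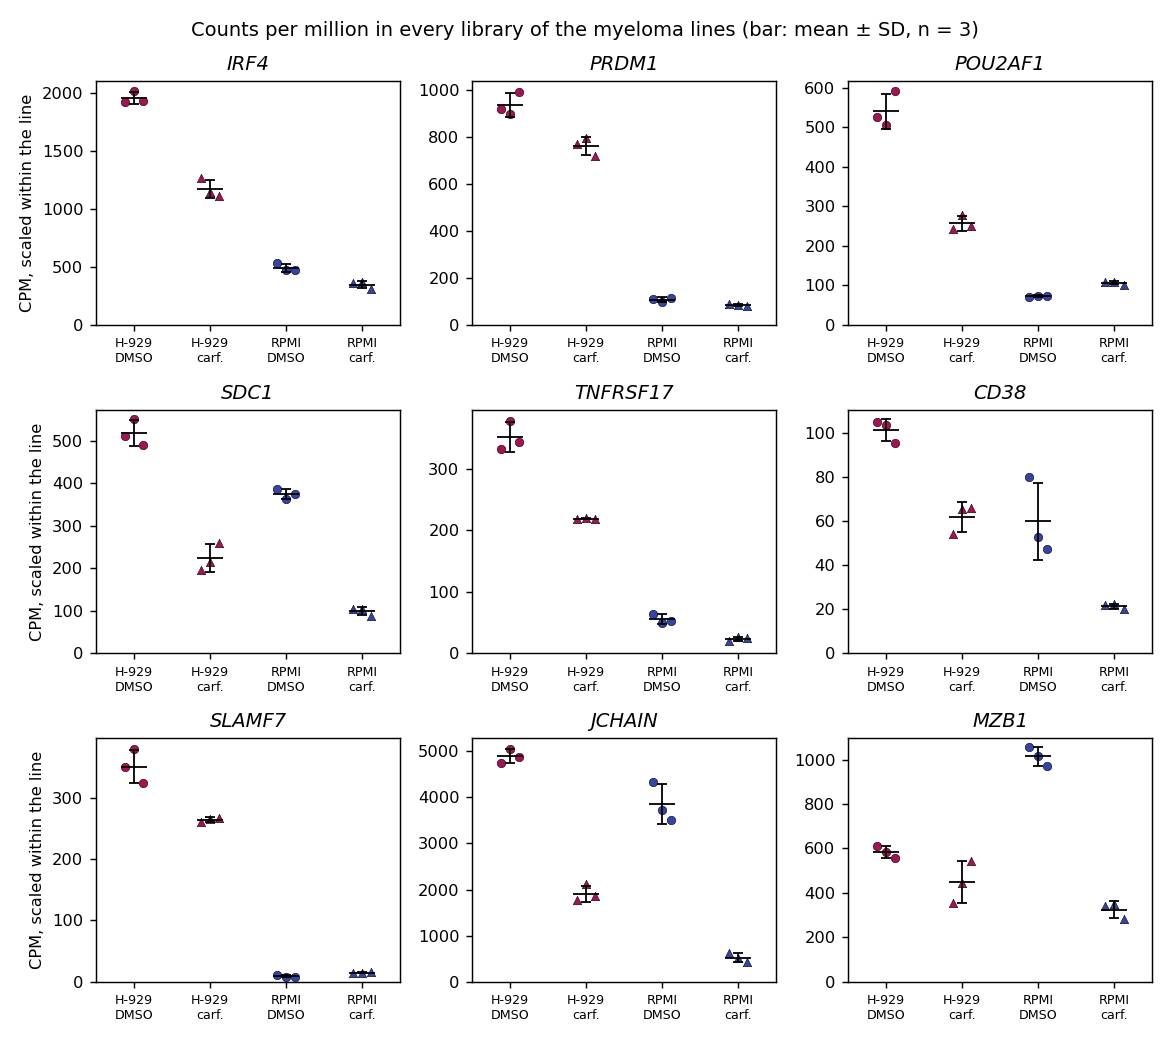
CPM of each gene in all 12 myeloma libraries, scaled within each line; circles are DMSO and triangles carfilzomib, with the mean and SD of 3 libraries as bars. All 9 genes lie lower with carfilzomib in H-929, while in RPMI POU2AF1 and SLAMF7 lie higher and the other 7 lower.

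Among the transcription factors, IRF4 fell in both lines. Its CPM in the H-929 libraries was 1919, 2014 and 1931 with DMSO and 1262, 1142 and 1113 with carfilzomib. In RPMI it was 529.7, 468 and 469.7 with DMSO and 360.3, 367 and 312 with carfilzomib. Every treated library lay under every DMSO library of its line. IRF4 CPM in treated H-929 libraries stayed above that in DMSO libraries of RPMI. This also held with factors over all 48 libraries (means of 1106 and 556). Carfilzomib changed IRF4 by -0.74 ± 0.071 on the log2 scale in H-929 (edgeR adjusted p = 1.07e-06), leaving 60.0% of the DMSO level, and -0.50 ± 0.070 in RPMI (2.94e-05), leaving 70.8%. In H-929, 11.5% of the genes tested had a lower value than IRF4, and in RPMI 22.9%.

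PRDM1 had the smallest decline of the members that fell in each line. The H-929 libraries held 917, 898 and 992 CPM with DMSO and 769, 797 and 720.3 with carfilzomib, and the RPMI libraries 108, 97.6 and 116 against 87.6, 84.2 and 79.7. The groups did not overlap in either line, but they stood close to each other. The estimate was -0.30 ± 0.072 (log2 fold change) in H-929 (edgeR adjusted p = 0.00308) and -0.36 ± 0.067 in RPMI (3.68e-04). Of all genes tested, 31.9% in H-929 and 29.5% in RPMI had a lower value.

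POU2AF1 moved in opposite directions in the 2 lines. H-929 libraries held 525, 505 and 591 CPM with DMSO and 243, 277 and 249 with carfilzomib. RPMI libraries held 70.5, 73.9 and 73.6 with DMSO and 109, 107 and 102 with carfilzomib. The treated libraries of H-929 remained above all RPMI libraries, also with factors over all 48 libraries. The log2 fold change was -1.08 ± 0.082 in H-929 (edgeR adjusted p = 1.16e-07), to 47.5% of the DMSO level, and 0.54 ± 0.052 in RPMI (8.00e-07), to 146%. POU2AF1 (chr11:111352252-111455630, minus strand, GENCODE 29) shares 236 exon bases with a pseudogene on the opposite strand that has no row here, and whether the counting used strand is not given in the sources used here.

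Of the surface markers, SDC1 fell furthest in both lines. Its H-929 libraries held 511, 550 and 491 CPM with DMSO and 196, 214 and 259.6 with carfilzomib. In RPMI the values were 386.5, 363 and 375 with DMSO and 105, 103 and 87.9 with carfilzomib. The highest treated library of either line lay well under the lowest DMSO library. Fitted log2 fold changes were -1.21 ± 0.096 in H-929 (edgeR adjusted p = 1.70e-07) and -1.93 ± 0.068 in RPMI (5.99e-11), leaving 43.1% and 26.3%. Of all genes tested, 2.46% had a lower value in H-929 and 2.10% in RPMI.

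TNFRSF17, which encodes the target of BCMA-directed antibodies and T cells, fell in both lines. H-929 libraries held 333, 379 and 344 CPM with DMSO and 218, 221 and 218 with carfilzomib, and RPMI libraries 64.7, 49.9 and 53.2 against 20.2, 26.4 and 25.1. The 3 treated H-929 libraries were nearly equal, and the scatter was wider among RPMI libraries. Fitted log2 fold changes were -0.68 ± 0.074 in H-929 (edgeR adjusted p = 3.19e-06) and -1.22 ± 0.11 in RPMI (3.86e-07).

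CD38 likewise fell in both. H-929 libraries held 105, 104 and 95.6 CPM with DMSO and 53.9, 65.4 and 65.9 with carfilzomib. In RPMI the DMSO libraries were spread, at 80.0, 52.6 and 47.2 CPM, and the treated ones were close together, at 21.9, 22.2 and 20.1. For CD38 the log2 fold change was -0.72 ± 0.098 in H-929 (edgeR adjusted p = 3.08e-05) and -1.47 ± 0.16 in RPMI (1.94e-06). Leaving out 1 library at a time moved the RPMI value between -1.64 and -1.23.

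SLAMF7, the target of the antibody elotuzumab, was the surface marker that split the lines. H-929 libraries held 349, 379 and 324 CPM with DMSO and 261, 265 and 267 with carfilzomib. RPMI libraries held 10.5, 8.15 and 8.07 with DMSO, from 181 to 297 counts, and 13.8, 15.1 and 16 with carfilzomib, from 250 to 359 counts. For SLAMF7 the log2 fold change was -0.41 ± 0.076 in H-929 (edgeR adjusted p = 4.04e-04) and 0.76 ± 0.13 in RPMI (1.93e-04). Even so, the lowest H-929 library was far above the highest RPMI library, also with factors over all 48 libraries.

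JCHAIN had the largest decline of the 9 in each line. H-929 libraries held 4750.4, 5056 and 4876 CPM with DMSO and 1771, 2109 and 1851 with carfilzomib. RPMI libraries held 4336, 3726 and 3509 with DMSO and 622, 519.6 and 431 with carfilzomib. The libraries stood far apart by treatment. The 2 lines lay closer to each other with DMSO than with carfilzomib, also with factors over all 48 libraries. The log2 fold change was -1.36 ± 0.077 in H-929 (edgeR adjusted p = 7.39e-09), leaving 39.03%, and -2.88 ± 0.12 in RPMI (1.73e-10), leaving 13.6%. Lower values were found for 1.63% of genes tested in H-929 and 0.620% in RPMI. JCHAIN's share of all counts went from 0.485% to 0.192% in H-929 and from 0.383% to 0.0526% in RPMI. Its exons share 87 bases with ENAM on the opposite strand, and ENAM had at most 413 counts in a myeloma library where JCHAIN had at least 9660.

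MZB1 fell by much more in RPMI. The RPMI libraries held 1058, 1017 and 973 CPM with DMSO and 343, 348 and 280.4 with carfilzomib, a log2 fold change of -1.65 ± 0.076 (edgeR adjusted p = 5.71e-10) that left 31.9%. In H-929 they held 610.4, 583 and 559 with DMSO and 355, 444 and 544 with carfilzomib. The third treated H-929 library lay just under the lowest DMSO library, and, relative to their mean, the treated libraries were the most scattered of any member in this line. The log2 fold change in H-929 was -0.39 ± 0.12 (edgeR adjusted p = 0.0119), and -0.58 without that library. With genes restricted to a mean of at least 50 counts it was -0.27 and the call was lost (adjusted p = 0.065; over the alternatives tested against no change the adjusted p ran from 1.41e-07 to 0.065), and against a null fold change of 1.5 it was not called either.

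The size of the response was compared between the lines with the interaction of line and treatment in 1 fit of the 12 libraries, in which 38.6% of the 17930 genes tested were called. Of the 9 genes, 7 differed. JCHAIN fell less in H-929 by 1.54 ± 0.15 on the log2 scale (edgeR adjusted p = 2.93e-07), MZB1 by 1.28 ± 0.16 (4.73e-06), CD38 by 0.77 ± 0.20 (0.00478), SDC1 by 0.73 ± 0.13 (1.77e-04) and TNFRSF17 by 0.55 ± 0.13 (0.00326). For POU2AF1 the response in H-929 lay below that in RPMI (difference -1.60 ± 0.10, edgeR adjusted p = 2.36e-09), and likewise for SLAMF7 (-1.17 ± 0.13, 1.13e-06).

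The 2 genes without a called difference were the factors IRF4 and PRDM1. For PRDM1 the difference was 0.08 ± 0.10 (edgeR adjusted p = 0.608), and its sign changed with the scaling. For IRF4 it was -0.23 ± 0.10 (edgeR adjusted p = 0.0918), and this call depended on the processing: with no filter on low counts it was -0.42 (adjusted p = 0.00116), and it also passed with factors over all 48 libraries (-0.397), with DESeq2 (-0.27), without the first treated H-929 library (-0.29) and without the third treated RPMI library (-0.31). Across all alternatives the adjusted p for IRF4 ran from 0.00116 to 0.197.

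**Figure D3:**
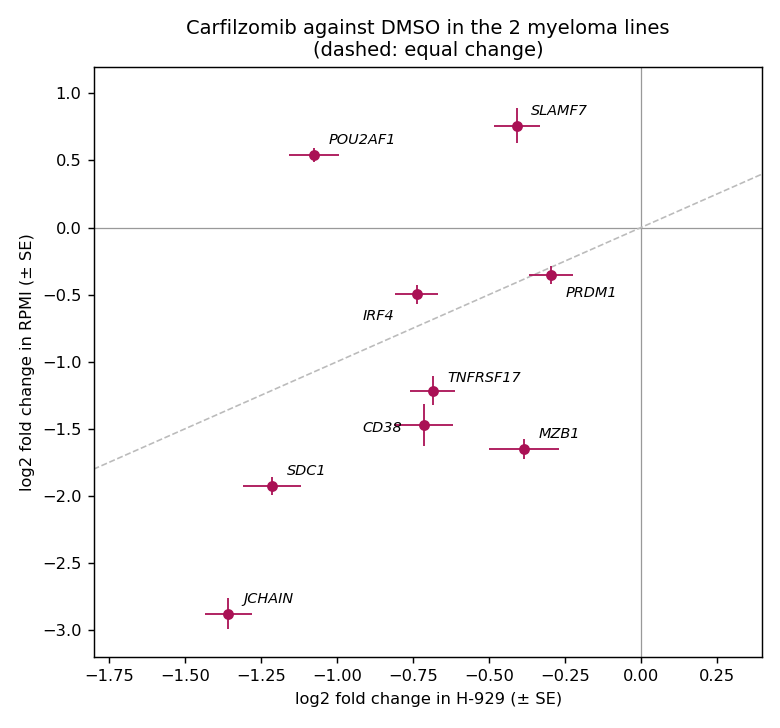
Log2 fold change with carfilzomib in H-929 (horizontal) against RPMI (vertical) for the 9 genes, with SE bars; the dashed line marks equal change. POU2AF1 and SLAMF7 lie in the upper left, JCHAIN at -1.36 and -2.88 lies farthest under the line together with MZB1, and PRDM1 lies on it.

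In the carcinoma lines, 19 pairs of gene and line passed the filter on low counts: 3 were called higher, 5 lower and 11 were not called. Of all genes tested, 8.9% were called in RKO, 23% in DLD-1, 33.9% in H-23, 61.2% in H-1299, 38.7% in PANC-1 and 52.5% in CAPAN-2, in either direction. SDC1 and PRDM1 passed the filter in all 6 lines, so their values with carfilzomib, in amounts that differed by line, can be given outside myeloma too.

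SDC1 fell in 3 of the 6 carcinoma lines and rose in 1. The largest decline was in H-1299, where the level was lowest, from 7.22, 8.35 and 7.78 CPM with DMSO to 2.89, 4.66 and 3.78 (log2 fold change -1.03 ± 0.16, edgeR adjusted p = 1.17e-04). CAPAN-2 libraries went from 311, 371 and 357 CPM to 233, 226 and 232 (-0.59 ± 0.065, edgeR adjusted p = 2.97e-06), and H-23 libraries from 188, 195 and 191 to 139, 131 and 142 (-0.48 ± 0.040, edgeR adjusted p = 6.60e-07). In all 3 lines the groups did not overlap, and the share of all genes tested with such separation was not computed there. DLD-1 libraries went the other way, from 134, 128 and 108 CPM to 157, 149.9 and 149.7 (0.30 ± 0.071, edgeR adjusted p = 0.0116), and this call was lost without the first treated library (adjusted p = 0.061, the highest over its alternatives, the lowest being 0.00216). RKO (-0.13 ± 0.053, edgeR adjusted p = 0.159) and PANC-1 (-0.04 ± 0.040, 0.513) were not called. The values in H-929 and RPMI, -1.21 and -1.93, were the lowest of the 8 lines, and whether they differ from that in H-1299 was not tested.

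PRDM1 fell in H-1299 (-0.62 ± 0.19, edgeR adjusted p = 0.0119) and PANC-1 (-0.53 ± 0.19, 0.0409) and rose in CAPAN-2 (0.26 ± 0.075, 0.00834). CAPAN-2, the carcinoma line with most PRDM1, went from 18.6, 16.7 and 18.3 CPM to 22.3, 21.4 and 20.6. These groups did not overlap, again with no share of all genes computed. The H-1299 libraries held 3.01, 3.45 and 3.52 CPM with DMSO and 2.57, 1.90 and 2.00 with carfilzomib, and the call was lost without the second treated library (adjusted p = 0.0542; range over alternatives 0.00461 to 0.0542). The PANC-1 call rested on 50 to 79 counts per library and was lost without the first or the third DMSO library, without the second or the third treated library and with no filter (adjusted p over alternatives 0.028 to 0.161). PRDM1 was not called in RKO (0.62 ± 0.23, edgeR adjusted p = 0.114), DLD-1 (0.43 ± 0.15, 0.0600) or H-23 (0.01 ± 0.16, 0.979).

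SLAMF7 was called higher in CAPAN-2 (1.78 ± 0.52, edgeR adjusted p = 0.00936), from 11, 2 and 11 counts with DMSO to 36, 12 and 21 with carfilzomib. The call was lost without the first treated library (1.51, adjusted p = 0.0608; range over alternatives 0.00156 to 0.0608), and the level stayed under 1 CPM. TNFRSF17 was tested in RKO, PANC-1 and CAPAN-2, and IRF4, CD38 and MZB1 in H-23; none of these was called, each at under 3 CPM in every library. JCHAIN and POU2AF1 passed the filter in no carcinoma line.

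**Figure D4:**
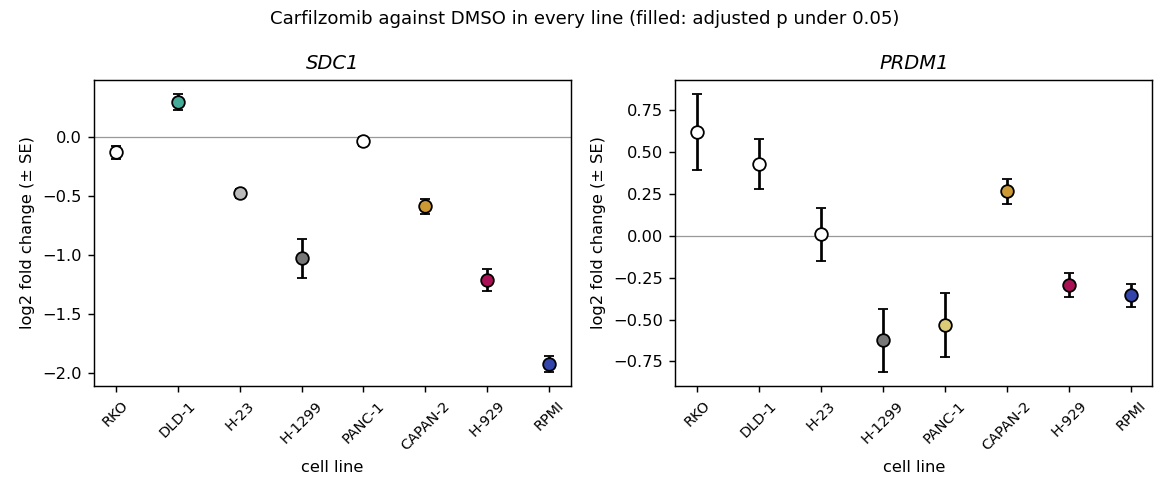
Log2 fold change with carfilzomib, with SE bars, for SDC1 (left) and PRDM1 (right) in each of the 8 lines; filled points have an adjusted p under 0.05. SDC1 is lowest in RPMI (-1.93) and H-929 (-1.21), whereas PRDM1 is lowest in H-1299 (-0.62) and PANC-1 (-0.53).

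Other genes of the plasma cell programme were read from the same fits, from a list of 28. The counts of this list and of those below stand beside the shares over all genes tested. These were 26.2% lower and 26.4% higher in H-929, 32.2% lower and 31.3% higher in RPMI, and 38.6% for the response difference. No list was tested against these shares. In H-929, 25 were tested, 14 were called lower and 3 higher (median log2 fold change -0.34), and in RPMI 23 were tested, 16 lower and 3 higher (median -0.63). GPRC5D, an orphan receptor of plasma cells and a therapy target, fell in H-929 (-1.78 ± 0.099, edgeR adjusted p = 5.60e-09) and in RPMI (-3.95 ± 0.27, 2.14e-08). In H-929 the sialyltransferase gene ST6GAL1 (-1.76) and the peroxiredoxin gene PRDX4 (-1.46) also led the declines, and CRELD2 (0.50) rose. In RPMI the integrin gene ITGA4 (-2.01) and KLF13 (-2.03; its symbol has further rows in the matrix, so its counts may be split) led, while EAF2 (1.19), the exonuclease gene ISG20 (0.95) and SDF2L1 (0.23) rose. XBP1, the secretory transcription factor, had -0.71 ± 0.075 in H-929 and -0.51 ± 0.074 in RPMI, both called lower. Of 26 genes tested for the response difference, 14 were called.

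Genes that plasma cells switch off did not move as a group in 1 direction. Of 20 B cell genes, 9 were tested in H-929 (4 higher, 2 lower, median -0.08) and 11 in RPMI (2 higher, 6 lower, median -0.56). The repressor gene BACH2, which holds back PRDM1 in B cells, fell in H-929 (-0.44 ± 0.12, edgeR adjusted p = 0.00588) and rose in RPMI (0.67 ± 0.10, 6.14e-05). CIITA, the activator of MHC class II genes, rose in H-929 (1.62) and FCER2 (CD23) fell there (-0.94). In RPMI the complement receptor gene CR2 (-2.57), MS4A1 (CD20, -2.14) and SPIB (-2.92) fell and BCL6 (1.54) rose. For 7 of 15 genes the response difference was called.

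Among 18 partners and targets of IRF4, 8 were called lower and 3 higher in H-929 (median -0.25), and 8 lower and 7 higher in RPMI (median 0.14). The lymphoid factors IKZF1 and IKZF3, which lenalidomide degrades, fell most in RPMI (-1.24 ± 0.056 and -1.90 ± 0.085), and in H-929 they stood at -0.58 and -0.76, also called. SUB1, a transcriptional coactivator, fell in H-929 (-0.97) and RPMI (-1.12), and MEF2C led the H-929 declines (-1.09) with POU2F1 (-0.78). KLF2 rose in H-929 (0.96) and RPMI (1.12). BATF rose in H-929 (1.35) and RELA in RPMI (0.50). The response difference was called for 9 of the 18.

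Around the surface markers, the shorter lists gave the following. Of 9 genes for BCMA ligands, related receptors and the gamma-secretase that sheds BCMA, 6 were tested in H-929 (4 lower, or 3 with library totals as the scaling, 0 higher, median -0.42) and 9 in RPMI (3 lower, 3 higher, median 0.06). The gamma-secretase subunit genes APH1A (-0.66 and -0.36) and PSEN2 (-0.50 and -0.81) fell in H-929 and RPMI, PSENEN fell in H-929 (-0.42, edgeR adjusted p = 0.0469), and NCSTN (0.36) rose in RPMI, where the BCMA relative TNFRSF13B (TACI) fell (-0.43). For 4 of 9 the response difference was called. Among 10 genes of the SLAM family and its adaptors, CD48 fell in H-929 (-1.48 ± 0.080, edgeR adjusted p = 4.80e-09) and in RPMI (-1.67 ± 0.26, 6.98e-05), and LY9 fell in both (-0.69 and -0.59). In H-929, 5 were tested, with 2 lower and 1 higher (median -0.03), and in RPMI the 2 tested were both lower (median -1.13); no response difference was called among 7. SLAMF7 and CD48 went in opposite directions in RPMI.

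Of 7 syndecans and ectoenzymes, 6 were tested in each line, with 1 lower and 2 higher in H-929 (median 0.18) and 3 lower and 2 higher in RPMI (median -0.79). SDC2 fell in H-929 (-1.13, edgeR adjusted p = 0.0488) at 54.3 counts on average with DMSO, and this call was lost with library totals as the scaling. The 2 rises there, SDC4 (1.58, edgeR adjusted p = 0.0068) and ENPP1 (1.04, 0.02), lay under the mean of 50 counts used for naming. In RPMI the heparanase gene HPSE (-1.16) and the ectonucleotidase gene NT5E (-1.64) fell and SDC3 (1.90) rose. Under that mean in RPMI, SDC4 rose (4.17, edgeR adjusted p = 5.72e-06) and SDC2 fell (-1.58, 0.00184). For 5 of 6 the response difference was called.

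JCHAIN and MZB1 act on immunoglobulin. Of a list of 15 immunoglobulin genes, the 14 constant region genes had no row under their symbols in the matrix. The shares of all counts given above therefore include no row of those symbols. IGLL5, a lambda-like polypeptide gene, was tested. It rose in H-929 (1.02 ± 0.078, edgeR adjusted p = 1.11e-07), was not called in RPMI (-0.89), and differed between the lines. The 13 chaperones and other partners of immunoglobulin secretion parted by line: in H-929, 9 of 12 tested were lower and 1 higher (median -0.65), and in RPMI 4 of 13 were lower and 9 higher (median 0.59). The response difference was called for 11 of the 13. The disulfide isomerase gene PDIA4 fell in H-929 (-1.36) with ERP44 (-1.01) and PDIA6 (-0.95), while the oxidase gene ERO1B rose (1.03). In RPMI the cyclophilin gene PPIB (-1.32), PDIA6 (-0.60) and PIGR (-2.20), which carries JCHAIN-bearing antibodies across epithelia, fell. ERO1B (1.41) and the BiP gene HSPA5 (1.79) rose there, and HYOU1 (2.59) rose on counts that may be split, since the symbol has a second row. In RPMI, then, JCHAIN and MZB1 were among the largest declines while most of these partners were higher; in H-929 both and most of the partners were lower.

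**Figure D5:**
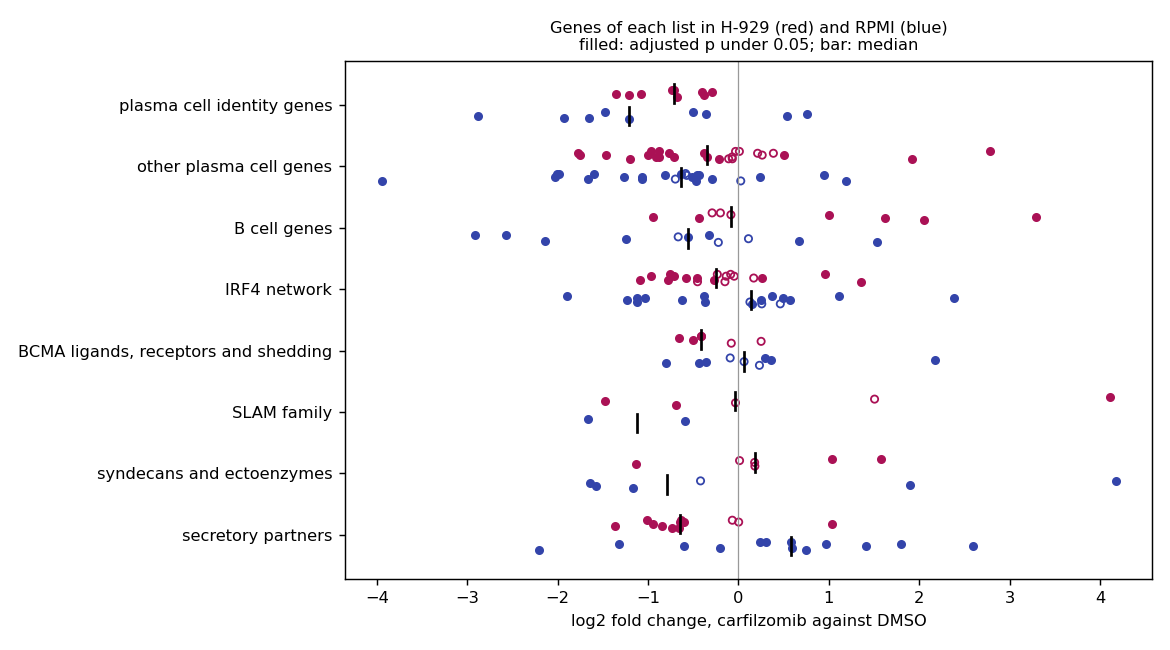
Log2 fold change with carfilzomib in H-929 (red) and RPMI (blue) of the 9 genes and the tested list genes, without the immunoglobulin list. A gene has 1 point per line in each list that holds it. Filled points have an adjusted p under 0.05 and bars mark medians. The secretory partners have medians of -0.65 in H-929 and 0.59 in RPMI, and the 9 plasma cell identity genes -0.72 and -1.22.

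Genes with the profile most like that of the 9 were ranked by Pearson correlation over the 16 group means of log2(CPM + 1), among 15146 candidates with a group mean of at least 5 CPM. The 5 nearest were GALNT17 (r = 0.996), WAS (0.995), CD53 (0.995), SPI1 (0.995) and MORC1 (0.993). CD53 is a leukocyte tetraspanin, WAS an actin regulator of blood cells and SPI1 (PU.1) an ETS factor of B and myeloid cells. With TMM factors over all 48 libraries, the highest carcinoma group mean among the 5 was 1.0015 CPM, for CD53. On that scale CD53, for example, went from 206 to 107 CPM in H-929 and from 102 to 58.7 in RPMI. These values are not on the scale of each line's own fit, which the members' changes use. The 16 means share the 8 lines, and the split of myeloma from carcinoma fixes most of such an r, which is given with no p. Of the members themselves, r with their own mean ran from 0.477 for SDC1 to 0.995 for IRF4.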

How the data were processed

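The data are 1 matrix of raw read counts per gene for 48 libraries, deposited by the authors, with a symbol and an Ensembl ID per row. The labels' protocols name a stranded kit for total RNA, and the design text names mRNA sequencing. The submitters' processing notes name hg38, bcl2fastq 2.19, FastQC, Trimmomatic, HISAT2 and DESeq2, without their roles; the counter, its annotation and its use of strand are not given in the sources used here. All 48 columns were matched to samples by title, and groups and replicate numbers come from the labels. P-values measure the spread between the biological replicates as labelled.

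Each line was fitted alone with edgeR 4.0.16 (R 4.3.3): filterByExpr, TMM factors, and the quasi-likelihood F test, two-sided, with Benjamini-Hochberg adjustment over all genes tested and a threshold of 0.05. The response difference used the 12 myeloma libraries and the DMSO difference their 6 DMSO libraries. The scripts were tested on simulated data. Levels across lines are CPM (counts per 1000000 counted reads) with TMM factors over all 48 libraries; gene models are GENCODE 29 and promoters RefSeq. Depth was 9116329 to 64369098 counts per library, which limits genes with few counts.

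The 9 members and all lists (other plasma cell genes, B cell genes, IRF4 network, BCMA ligands, receptors and shedding, SLAM family, syndecans and ectoenzymes, immunoglobulin constant region genes with IGLL5, secretory partners, and markers of mature B, T and NK, myeloid and epithelial cells) were chosen with earlier results of these data known. Named list genes are the called genes with at most 3 largest rises and 3 largest falls per list and line at a mean of at least 50 counts; XBP1 and the H-929 values of IKZF1 and IKZF3 were added after their values were seen. Values of 2 list genes that the rule names are not reported here. The rule for sequences names members called in the same direction in both myeloma lines or holding a motif. Libraries with the same replicate number correlated at -0.10 to 0.068. These low values show no pairing but cannot exclude it, and no block was used in the main fits. Alternatives were other scaling (DESeq2 1.42.0 size factors, library totals, factors over all 48 libraries), no filter or a mean of at least 50 counts, the DESeq2 Wald test, a null fold change of 1.5, 1 fit of all myeloma libraries, a replicate block and leaving out each library; those with factors over all 48 libraries, and the block and left-out libraries in the carcinoma lines, were chosen after seeing the data.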

Additional observations from a re-analysis of the deposited data

Results flagged for a closer look

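In 7 of the 9 genes the response to carfilzomib differed between the 2 myeloma lines by the interaction test of edgeR, given as H-929 minus RPMI on the log2 scale with the adjusted p. That test called 38.6% of the 17930 genes tested. In JCHAIN the difference was 1.54 (2.93e-07), in MZB1 1.28 (4.73e-06), in CD38 0.77 (0.00478), in SDC1 0.73 (1.77e-04) and in TNFRSF17 0.55 (0.00326), each a smaller decline in H-929. In POU2AF1 it was -1.60 (2.36e-09) and in SLAMF7 -1.17 (1.13e-06). Both genes were lower in all 3 treated H-929 libraries and higher in all 3 treated RPMI libraries than in any DMSO library of the same line. Treated and DMSO libraries did not overlap, in either direction, for 59.4% of all genes tested in H-929 and 68.2% in RPMI. Across the 19 alternatives the differences kept their sign and stayed called in all 7 genes, with adjusted p of at most 0.0345 (TNFRSF17). All 19 tested against no difference, and the null fold change of 1.5 was not among them. The lines also differed in level before treatment and in the amount of drug, and the part of either in these differences was not tested. Groups of 3 libraries were not searched for outlying samples.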

How the results depend on the processing

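In H-929 and RPMI every member kept its direction under every alternative run. The 9 lower calls in H-929 became 8 with a mean of at least 50 counts and 4 against a null fold change of 1.5 (JCHAIN, SDC1, POU2AF1 and IRF4). Against that null, RPMI had 5 lower calls and 0 higher calls. Leaving out each library in turn gave 9 to 9 lower calls and 0 to 0 higher calls in H-929, 7 to 7 and 2 to 2 in RPMI, 7 to 8 called response differences, and 8 to 8 higher and 1 to 1 lower at the DMSO level. In the carcinoma lines, such fits gave 0 to 1 called members in DLD-1, 1 to 2 in H-1299, 0 to 1 in PANC-1, 2 to 3 in CAPAN-2, 1 to 1 in H-23 and 0 to 0 in RKO. DLD-1 had 2 with library totals and 2 with a mean of at least 50 counts, and PANC-1 had 0 without a filter. Syndecans and ectoenzymes lower in H-929 became 0 with library totals. Values that changed sign belonged to tests that were not called, and the cause was not tested. The PRDM1 response difference was -0.12 without a filter, -0.10 with factors over all 48 libraries and -0.012 to 0.13 when 1 library was left out. In H-23, IRF4 ran from -0.060 to 0.57 without 1 library, and PRDM1 was -0.019 with library totals, -0.014 without a filter, -0.00695 with the replicate block and -0.13 to 0.19 without 1 library. With 1 library left out, TNFRSF17 ran from -0.15 to 0.21 in PANC-1 and from -0.11 to 0.58 in CAPAN-2. DMSO levels moved by more than 1 SD mainly with library totals, as for IRF4 in H-929 (1939 CPM). The replicate block left 9 lower calls in H-929, 7 lower and 2 higher in RPMI and 7 response differences; libraries with the same number correlated at -0.10 to 0.068, so the number is shared but no pairing is shown. The DESeq2 Wald test called 15.6% of genes lower and 20.5% higher in H-929, against 26.2% and 26.4%, and with no filter 17.8% and 19.6%; in RPMI it called 20.3% and 20.6%, against 32.2% and 31.3%. Carcinoma values under 1 CPM rest on few reads.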
